A study of Mus musculus with 6 samples.

Results

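Polyamines are small positively charged molecules made from the amino acid ornithine, and the 10 genes described here encode enzymes and regulators that make polyamines, break them down, or connect ornithine to proline and glutamate. The genes are Odc1, Amd1, Srm, Sms, Oaz1, Azin1, Sat1, Oat, Aldh18a1 and Pycr1. They were taken by name from a table of 27480 genes, and all 10 had a row. They were selected on earlier values of the same comparison, the log2 fold changes between the groups, in which genes of arginine and proline metabolism were slightly higher with PTMA. The differences between the groups are therefore a description of the members, without a test of their own.

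The libraries came from OT1 CD8+ T cells, mouse cytotoxic T cells whose transgenic receptor recognises an ovalbumin (OVA) peptide. The 3 PTMA libraries came from cells with an overexpression construct for PTMA, prothymosin alpha, an acidic protein found mostly in the nucleus, and the 3 vector libraries from cells with the overexpression vector alone. Cells of both groups are labelled WT and were stimulated with OVA peptide for 48 h. The labels do not give the promoter or species of the construct, the way it was delivered, or the animals and cultures behind the replicates, so any p-value reflects how far these libraries scatter, and that scatter may be technical.

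T cells that meet their antigen switch on polyamine synthesis as they enlarge and begin to divide. Ornithine decarboxylase makes putrescine, and spermidine and spermine are built from it with aminopropyl groups taken from decarboxylated S-adenosylmethionine. When polyamines accumulate, the protein antizyme binds ornithine decarboxylase, directs it to the proteasome and limits polyamine uptake, while antizyme inhibitor binds antizyme and frees the enzyme. Ornithine itself can be made from arginine, or from glutamate through pyrroline-5-carboxylate, which is also the precursor of proline.

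Total counts were 65548729, 66767589 and 65640178 in PTMA 1 to 3 and 54989408, 62995824 and 63011584 in vector 1 to 3. Levels by library are given in CPM, counts scaled to library size, here with TMM factors. Ptma itself stood at 1257 ± 98.0 CPM in the PTMA libraries and 926 ± 193 CPM in the vector libraries (SD, n = 3 each). It had 1152, 1346 and 1272 CPM in PTMA 1 to 3 and 848, 783 and 1146 CPM in vector 1 to 3. Vector 3 thus lay just below PTMA 1. The log2 fold change of Ptma, 0.44 (SE 0.13), did not pass the test across all genes (edgeR quasi-likelihood, adjusted p = 0.951). All 8 markers of CD8+ T cells were detected, with a summed level of 6012 to 6426 CPM in the PTMA and 5884 to 6441 CPM in the vector libraries. Summed levels of the 4 listed B cell markers found in the table were 5.37 to 6.69 CPM in the PTMA and 3.95 to 4.95 CPM in the vector libraries, of which Cd79b made up 89.8%. The stroma list (5 of 5 detected) reached 212 to 217 CPM with PTMA and 204 to 207 CPM with vector, 98.3% of it from Pecam1, and the 3 oocyte genes 1.43 to 4.09 CPM with PTMA and 20.2 to 30.9 CPM with vector. These 3 lists did not overlap between the groups. Those of CD8+ T cells, CD4 and regulatory T cells, NK cells and neutrophils overlapped. So did those of macrophages and monocytes, mature dendritic cells, keratinocytes and sex-linked genes. Of all single genes tested, 10.8% did not overlap in either direction. What part the 3 lists had in the values below was not tested. In bulk RNA, fewer cells of a type and less RNA per cell cannot be told apart.

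Several members have near-identical copies elsewhere in the genome, which limits how their counts can be read. The coding sequence of Sms, 1098 bases, was identical over its whole length to the processed pseudogene Sms-ps (percent identity 100 in GENCODE M21). The stretch of Sms shown first lies across junction 5 of the 10 between its coding exons, with 30 bases from each exon and the second exon in capitals. It reads on the minus strand of the X chromosome of GRCm38 from chrX:157461961-157461990 into chrX:157461301-157461330, and the pseudogene carries the same 60 bases without an intron at chrX:62776151-62776210, minus strand.
Sms: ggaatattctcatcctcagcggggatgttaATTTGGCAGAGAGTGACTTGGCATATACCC
Sms-ps: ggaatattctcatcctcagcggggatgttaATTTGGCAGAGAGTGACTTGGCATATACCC
Amd1 and the intronless gene Amd2 differed at 1 of 1002 coding bases, which is the capital letter in the 60 bases below (chr10:40290157-40290216 for Amd1 and chr10:35710735-35710794 for Amd2, both minus strand).
Amd1: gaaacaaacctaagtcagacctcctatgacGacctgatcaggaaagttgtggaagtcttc
Amd2: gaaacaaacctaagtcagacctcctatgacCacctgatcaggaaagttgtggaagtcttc
Oaz1 and the pseudogene Oaz1-ps differed at 1 aligned coding base, in capitals below, and by 4 gapped positions (Oaz1 from chr10:80826854-80826905 into chr10:80828237-80828244, plus strand; Oaz1-ps at chr17:17345987-17346046, minus strand). Coding reads of these pairs can therefore be counted under either name, and how the authors' counting treated them is not given in the sources used here.
Oaz1: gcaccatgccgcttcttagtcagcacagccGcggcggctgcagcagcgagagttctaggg
Oaz1-ps: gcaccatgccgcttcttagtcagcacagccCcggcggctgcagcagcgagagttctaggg

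Of the 10 members, 8 had an entry among the RefSeq promoter windows of GRCm38.p6 (250 bases before to 50 after the start of transcription), Sms with 2 windows. The hexamer CACGTG, the same on both strands and the core of the E-box bound by Myc and its partner Max, was found in 2 of these 9 windows, against 7.15% of all 32851 windows. It stood 59 bases before the start of Aldh18a1 and 196 bases before a start of Sms. The GC box GGGCGG, searched on both strands, was found in 7 of the 9 windows, against 35.7% of all windows, and occurred 4 times before the start of Odc1. The 2 windows with CACGTG are shown because Myc is a textbook activator of this pathway. The Odc1 window held no CACGTG and is marked for GGGCGG only, and sequence outside the windows was not searched. Matched letters are a description and not a binding site. Capitals mark CACGTG in Aldh18a1 (chr19:40588414-40588713, minus strand) and in Sms (chrX:157492238-157492537, minus strand), and GGGCGG or its complement in Odc1 (chr12:17544623-17544922, plus strand).
Odc1: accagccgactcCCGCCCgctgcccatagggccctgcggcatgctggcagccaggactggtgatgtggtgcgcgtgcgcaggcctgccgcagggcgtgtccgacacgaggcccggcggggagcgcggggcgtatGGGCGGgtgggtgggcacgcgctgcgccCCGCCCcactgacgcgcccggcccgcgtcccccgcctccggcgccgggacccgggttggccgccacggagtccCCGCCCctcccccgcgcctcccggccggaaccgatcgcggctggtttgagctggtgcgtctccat
Aldh18a1: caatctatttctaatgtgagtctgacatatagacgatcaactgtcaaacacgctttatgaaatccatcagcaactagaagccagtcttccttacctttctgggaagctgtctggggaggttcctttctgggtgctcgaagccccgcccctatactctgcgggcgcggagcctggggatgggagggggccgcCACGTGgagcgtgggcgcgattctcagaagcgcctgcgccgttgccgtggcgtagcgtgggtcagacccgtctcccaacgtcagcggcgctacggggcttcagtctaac
Sms: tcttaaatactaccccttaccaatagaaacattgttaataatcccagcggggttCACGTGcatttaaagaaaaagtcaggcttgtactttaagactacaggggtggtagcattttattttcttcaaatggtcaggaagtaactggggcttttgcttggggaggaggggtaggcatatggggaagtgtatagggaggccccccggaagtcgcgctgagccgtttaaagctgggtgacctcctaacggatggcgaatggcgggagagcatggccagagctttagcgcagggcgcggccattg

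Across genes, RNA levels were compared in FPKM, the authors' fragments per kilobase and library size, which corrects for gene length. The regulators of ornithine decarboxylase differed widely in level. Oaz1, antizyme, averaged 445 ± 14.4 FPKM in the PTMA and 417 ± 19.0 FPKM in the vector libraries (SD, n = 3 each), above 99.7% of the gene names in the table. Azin1, antizyme inhibitor, averaged 14.9 ± 0.66 FPKM with PTMA and 15.3 ± 0.93 FPKM with vector. Between them came Srm at 86.4 ± 3.75 FPKM with PTMA and 78.5 ± 3.91 FPKM with vector, Sat1 at 62.6 ± 3.56 and 62.2 ± 5.42 FPKM in PTMA and vector, and Odc1 at 38.0 ± 1.3 and 35.1 ± 1.72 FPKM in PTMA and vector (SD, n = 3 each). Aldh18a1 (30.6 ± 1.58 FPKM with PTMA, 29.9 ± 3.47 FPKM with vector) and Oat (30.7 ± 0.60 FPKM with PTMA, 28.5 ± 1.70 FPKM with vector) followed and could not be ordered, with Aldh18a1 the higher in 3 of 6 libraries. Nor did the ranges of Amd1 (10.6 ± 0.90 FPKM with PTMA, 10.2 ± 0.23 FPKM with vector) and Sms (9.93 ± 1.81 FPKM with PTMA, 9.99 ± 0.26 FPKM with vector) separate. All other neighbours in the order kept it in 6 of 6 libraries with no overlap of their ranges, although the lowest Odc1 value (33.87 FPKM) and the highest Aldh18a1 value (33.86 FPKM) nearly met.

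Pycr1 was the exception in level. It encodes a mitochondrial enzyme of the last step of proline synthesis, and had 0.561 ± 0.163 FPKM in the PTMA and 0.510 ± 0.135 FPKM in the vector libraries (SD, n = 3 each). The related gene Pycrl, whose product carries out the same kind of step, was far more abundant. It had 45.1 ± 0.50 FPKM with PTMA and 41.9 ± 3.79 FPKM with vector. Per library, the level of Pycrl was 116, 64.1 and 76.6 times that of Pycr1 in PTMA and 61.1, 91.0 and 106 times in vector, with overlap. Arginase, which makes ornithine from arginine, was near the floor, with 8, 5 and 25 counts of its gene Arg1 in PTMA 1 to 3 and 4, 7 and 10 in vector 1 to 3. Arg2 had 8, 11 and 15 counts in PTMA and 5, 0 and 3 in vector. Neither had enough counts to be tested.

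**Figure D1:**
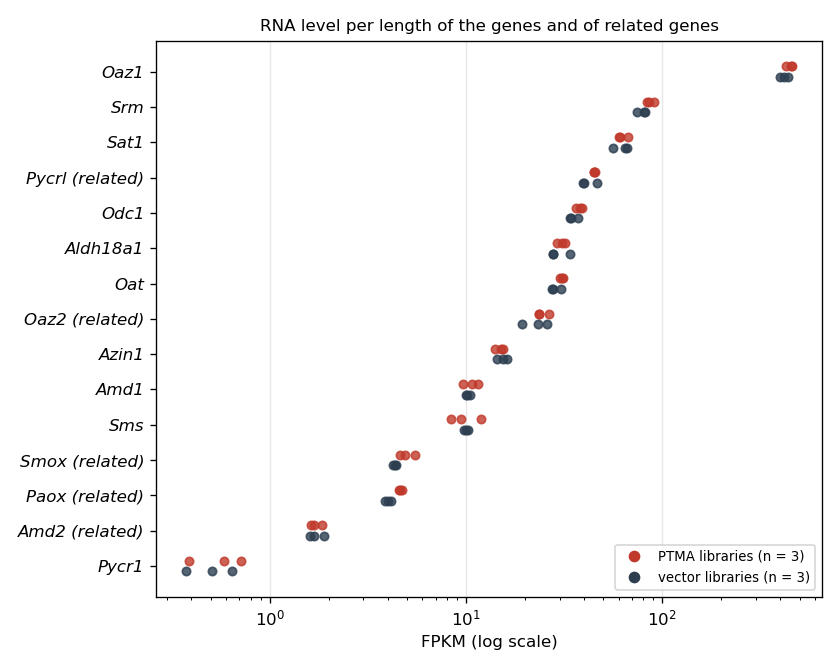
RNA level per length (FPKM, log axis) of the 10 members and 5 related genes in the 3 PTMA libraries (red, upper points) and 3 vector libraries (dark, lower points) of each row. Oaz1 stands at 397 FPKM or more in every library, and Pycr1 reaches at most 0.712 FPKM while its relative Pycrl lies above 39 FPKM.

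In the comparison of PTMA with vector, 0 of the 10 members passed the test across all genes (edgeR quasi-likelihood, Benjamini-Hochberg threshold 0.05), where 0.0121% of the 16592 genes tested passed, and 0 had an unadjusted p under 0.05. DESeq2 and limma on FPKM likewise called 0 members, although limma with its FPKM filter tested 9 of them, without Pycr1. The log2 fold change was positive for 8 members and negative for 2, with a median of 0.07, a lowest value of -0.046 and a highest of 0.14. Over all tested genes the median was -0.015 and 46.8% were positive. Limma on log2(FPKM + 1), limited to genes with a mean FPKM of 1 or more, gave a median of 0.0088. In TMM-scaled CPM the groups did not overlap for 2 members, both higher with PTMA, where 5.39% of all tested genes did so in that direction.

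**Figure D2:**
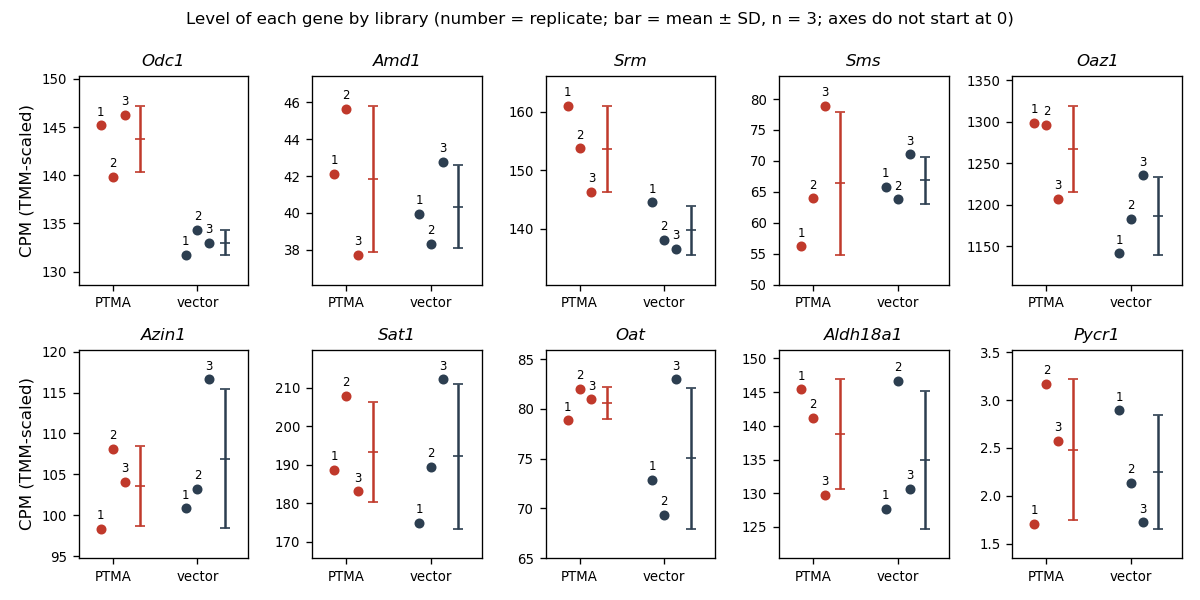
TMM-scaled CPM of each of the 10 members in every library, PTMA on the left and vector on the right of each panel, with replicate numbers and the mean ± SD (n = 3); the axes do not start at 0. Points of the 2 groups separate for Odc1 and Srm and mix for the other 8 genes.

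Among the genes of synthesis, Odc1, which encodes the enzyme that makes putrescine (ENSMUSG00000011179, chr12:17544794-17551084), had 145, 140 and 146 CPM in PTMA 1 to 3 and 132, 134 and 133 CPM in vector 1 to 3. Every PTMA library lay above every vector library, and the 3 vector values lay within 2.56 CPM of each other, so its spread within groups (0.026 on the log2 scale) was the smallest of the 10. Its log2 fold change was 0.11 (SE 0.061). The separation depended on the scale: with libraries scaled to the same sum, the PTMA values were 137 to 146 CPM and the vector values 131 to 138 CPM, and the fold change was 0.085. In the authors' FPKM the groups of Odc1 overlapped too, with PTMA 2 at 36.5 FPKM and vector 2 at 37.1 FPKM.

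Srm, spermidine synthase (ENSMUSG00000006442, chr4:148591503-148594619), had 161, 154 and 146 CPM in PTMA and 144, 138 and 137 CPM in vector. The lowest PTMA library stood 1.77 CPM above the highest vector library. With a log2 fold change of 0.14 (SE 0.067) it was 1.10-fold as high in PTMA, and its groups too overlapped when libraries were scaled to the same sum. Amd1, S-adenosylmethionine decarboxylase, which supplies the aminopropyl donor (ENSMUSG00000075232, chr10:40287458-40302186), had 42.1, 45.7 and 37.7 CPM in PTMA and 39.9, 38.3 and 42.8 CPM in vector. PTMA held both the highest and the lowest library, and the log2 fold change was 0.053 (SE 0.097). Amd2 was counted at 11.4 to 14.5% of the sum of the pair, and with Amd2 and the Amd pseudogenes added the log2 fold change of Amd1 was 0.040.

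Sms, spermine synthase (ENSMUSG00000071708, chrX:157443855-157492287), varied most between libraries of the well-expressed members. It had 56.2, 64.0 and 78.9 CPM in PTMA 1 to 3 and 65.8, 63.8 and 71.1 CPM in vector 1 to 3, so PTMA held both extremes, a 1.40-fold range. The pseudogene Sms-ps had 27.3, 33.2 and 21.4 CPM in PTMA and 23.7, 25.0 and 33.2 CPM in vector. PTMA 3, with the highest Sms value, had the lowest pseudogene value, and the share of the pair counted under Sms was 67.3%, 65.9% and 78.6% in PTMA and 73.5%, 71.8% and 68.2% in vector. Summed over the pair, the level was 83.5, 97.1 and 100.3 CPM in PTMA and 89.5, 88.8 and 104.3 CPM in vector, a 1.25-fold range. The log2 fold change was -0.011 (SE 0.12) for Sms alone and -0.0079 (SE 0.097) for the sum.

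**Figure D3:**
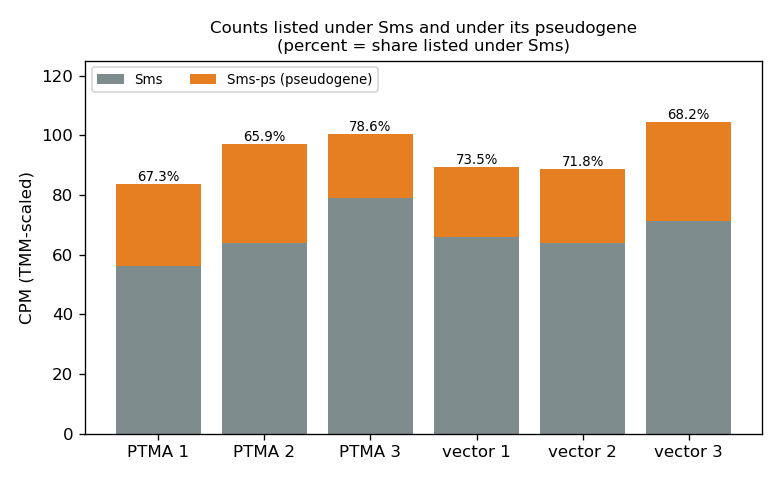
TMM-scaled CPM listed under Sms (grey) and under its pseudogene Sms-ps (orange), stacked for each library from PTMA 1 to vector 3, with the percent listed under Sms above each bar. The share is highest in PTMA 3 (78.6%) and lowest in PTMA 2 (65.9%), while the summed bars run from 83.5 to 104.3 CPM.

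Of the regulators, Oaz1 (ENSMUSG00000035242, chr10:80826656-80829290) had 1298, 1296 and 1207 CPM in PTMA and 1142, 1183 and 1235 CPM in vector. The groups overlapped in 1 library each, PTMA 3 lying below vector 3. Its log2 fold change was 0.09 (SE 0.062), and 0.09 with the pseudogene Oaz1-ps added, which took 2.86 to 3.85% of the pair's counts. Azin1 (ENSMUSG00000037458, chr15:38487427-38519266) had 98.4, 108 and 104 CPM in PTMA and 101, 103 and 117 CPM in vector, with vector 3 the highest of the 6. Its log2 fold change of -0.046 (SE 0.080) was the lowest of the 10, and without vector 3 it was 0.022. The FPKM ratio of Oaz1 to Azin1 was 32.3, 29.3 and 28.4 in PTMA and 27.7, 28.0 and 25.9 in vector, with no overlap, whereas that of Oaz1 to Odc1 was 11.9, 12.3 and 11.0 in PTMA and 11.5, 11.7 and 12.4 in vector. The first ratio was read after its values were known and was not tested. Its lowest PTMA value, 28.36, lay close to its highest vector value, 28.02. All other ratios computed between members or their relatives overlapped.

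Sat1 encodes the acetyltransferase that starts the breakdown and export of spermidine and spermine (ENSMUSG00000025283, chrX:155213132-155216449). It had 189, 208 and 183 CPM in PTMA and 175, 190 and 212 CPM in vector, with a log2 fold change of 0.0076 (SE 0.087), the smallest in size of the 10. Vector 1 and vector 3 marked the lower and upper ends of all 6 libraries. Sat1 and Sms lie on the X chromosome. Xist, the RNA of the inactive X chromosome, had a count of 0 in 5 of 6 libraries and 0.097 CPM in vector 3, and the Y-linked gene Ddx3y had 49.8 to 56.2 CPM in PTMA and 57.1 to 62.7 CPM in vector, so Y-linked RNA was present in each library. The oxidase genes of this branch were less abundant per length than Sat1, at 5.01 ± 0.43 FPKM in PTMA and 4.34 ± 0.09 FPKM in vector for Smox, spermine oxidase, and 4.62 ± 0.08 FPKM in PTMA and 3.99 ± 0.13 FPKM in vector for Paox, which oxidises the acetylated products (SD, n = 3 each). Smox had 20.2, 24.1 and 21.2 CPM in PTMA and 18.7, 18.1 and 19.9 CPM in vector, and Paox 25.8, 25.4 and 24.6 CPM in PTMA and 22.0, 20.2 and 23.4 CPM in vector. In each of them the groups did not overlap, with log2 fold changes of 0.20 (SE 0.11) and 0.21 (SE 0.096) and an edgeR adjusted p of 0.951 for both. These 2 genes are named here after their values were seen.

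Among the genes that link ornithine, glutamate and proline, Oat encodes ornithine aminotransferase of the mitochondrial matrix (ENSMUSG00000030934, chr7:132557478-132576398). It had 78.9, 82.0 and 81.0 CPM in PTMA and 72.9, 69.3 and 83.0 CPM in vector. Vector 3 stood above all PTMA libraries and the other 2 vector libraries below them. The log2 fold change was 0.10 (SE 0.084), and without vector 3 it was 0.18. GENCODE M21 places Oat within the bounds of a same-strand Fgfr2 gene model. Aldh18a1, which encodes the enzyme that turns glutamate into the precursor of ornithine and proline (ENSMUSG00000025007, chr19:40550257-40588463), had 145, 141 and 130 CPM in PTMA and 128, 147 and 131 CPM in vector, with a log2 fold change of 0.040 (SE 0.080). Its highest and lowest libraries were both vector. Pycr1 (ENSMUSG00000025140, chr11:120635712-120643748) rested on 111, 207 and 169 counts in PTMA and 162, 138 and 107 in vector. Its log2 fold change of 0.14 (SE 0.30) was the largest of the 10 and had by far the widest error.

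**Figure D4:**
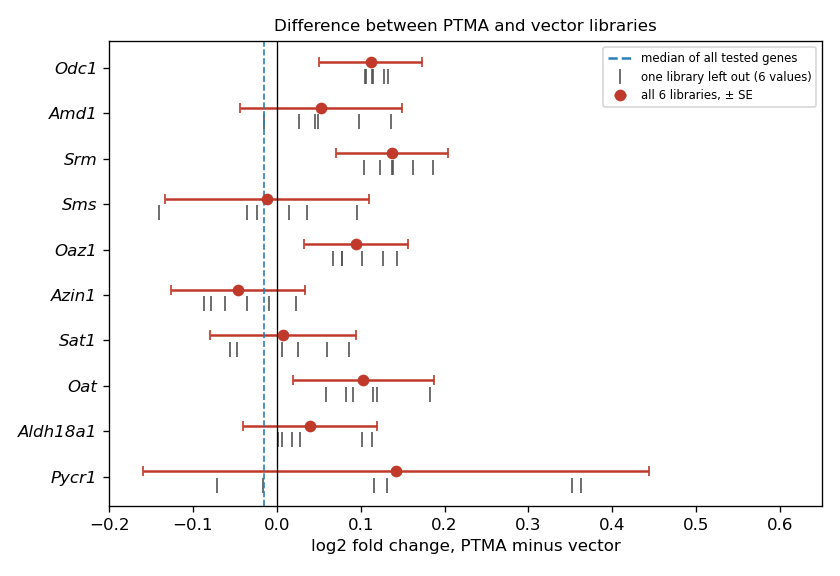
Log2 fold change of each member, PTMA minus vector, with its SE (red) and the 6 values obtained when a single library is left out (ticks); the dashed line is the median of all tested genes, -0.015. Odc1, Srm, Oaz1, Oat and Aldh18a1 stay above 0 in all 6, and the other 5 members cross it.

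The rest of the pathway was taken from 8 lists with 65 genes, of which 59 had a row and 50 had enough counts to be tested. None of the 50 passed the edgeR test in either direction. Their median log2 fold change was 0.09, with 34 positive and 16 negative, beside a median of -0.015 and 46.8% positive over all tested genes. With limma on log2(FPKM + 1), limited to genes with a mean FPKM of 1 or more, the median over tested genes was 0.0088. The groups did not overlap for 8 genes higher and 1 lower with PTMA, where 5.39% and 5.38% of all tested genes did so. The lists, like the members, were chosen with earlier results of these data known, so these values are a description.

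Of the 5 tested genes of interconversion, breakdown and antizymes, 3 were positive (median 0.11). The second antizyme gene Oaz2 had the highest level, with 24.5 ± 1.61 FPKM in PTMA and 22.8 ± 3.24 FPKM in vector (SD, n = 3 each), and Oaz1 stood 17.1 to 19.3 times above it in PTMA and 16.9 to 20.6 times in vector. Oaz3, an antizyme known from testis, rested on 6 to 15 counts in PTMA and 9 to 16 in vector. Spermidine is also used to make hypusine, a modified lysine of the translation factor eIF5A, and 3 of the 4 genes of that list were positive (median 0.07). Eif5a had 842 ± 44.4 FPKM in PTMA and 759 ± 51.0 FPKM in vector, a log2 fold change of 0.15 (SE 0.079). Its paralogue Eif5a2 lay the other way, with 4.16, 3.53 and 4.55 CPM in PTMA and 7.63, 6.40 and 8.38 CPM in vector. Each PTMA library was below each vector library, and the log2 fold change was -0.87 (SE 0.17). It did not pass with edgeR (adjusted p = 0.371) and passed with DESeq2 (adjusted p = 0.00535), the only alternative of 15 in which it did.

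In the list of S-adenosylmethionine supply and methylthioadenosine salvage 6 of 7 were positive (median 0.09). Mat2a, which makes S-adenosylmethionine, had 66.3 ± 2.84 FPKM in PTMA and 64.1 ± 4.55 FPKM in vector, and Mtap, which recycles the by-product of spermidine and spermine synthesis, 19.8 ± 0.72 FPKM in PTMA and 17.8 ± 0.50 FPKM in vector. Of the 7 tested genes of arginine use 6 were positive (median 0.12), Asl of arginine synthesis being the most abundant with 14.3 ± 0.83 FPKM in PTMA and 13.3 ± 0.99 FPKM in vector, and Gamt of creatine synthesis the most shifted, at 0.80 (SE 0.50), on 34 to 54 counts in PTMA and 12 to 37 in vector. In proline metabolism 6 of 7 were positive (median 0.11). Prodh, which begins proline breakdown, had 4.22, 2.11 and 3.82 CPM in PTMA and 2.39, 1.66 and 3.42 CPM in vector, with overlap.

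Glutamate supply had 5 of 6 positive (median 0.11), with the mitochondrial transaminase gene Got2 at 61.8 ± 6.79 FPKM in PTMA and 57.6 ± 4.25 FPKM in vector and the glutaminase gene Gls2 at 3.56 ± 0.85 CPM in PTMA and 2.54 ± 0.22 CPM in vector (SD, n = 3 each). Transport was the list with a negative median (-0.06), 2 of 8 tested genes being positive. Slc3a2, the shared heavy chain of several amino acid transporters, was the most abundant, with 65.6 ± 1.80 FPKM in PTMA and 60.5 ± 1.87 FPKM in vector, and Slc12a8 the most shifted, at 0.19 (SE 0.17). Myc and its partners had 3 of 6 positive (median 0.02). Myc itself had 102 ± 2.02 FPKM in PTMA and 105 ± 5.62 FPKM in vector, with a log2 fold change of -0.035 (SE 0.062). Max had 92.7, 49.1 and 46.9 CPM in PTMA and 46.8, 49.4 and 43.8 CPM in vector, so its log2 fold change of 0.43 (SE 0.23) came from PTMA 1 and was 0.04 without it.

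**Figure D5:**
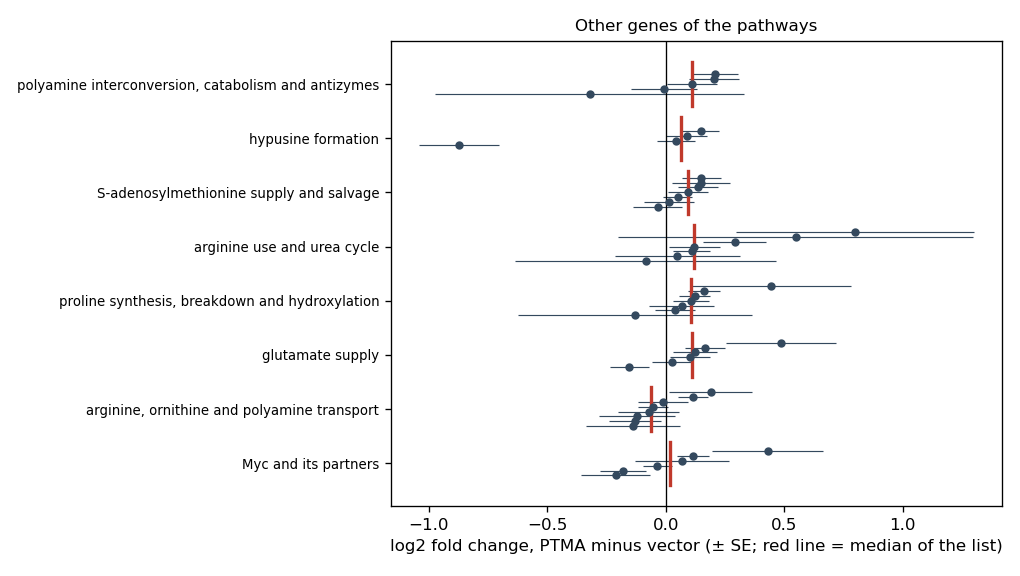
Log2 fold change (PTMA minus vector, ± SE) of the 50 tested genes in the 8 pathway lists, with the median of each list in red. Medians run from -0.06 for transport to 0.12 for arginine use, and Eif5a2 stands apart at -0.87.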

How the data were processed

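Poly(A) RNA of 3 PTMA and 3 vector libraries was sequenced in pairs, per the labels' protocols, and groups and replicate numbers were taken from the titles. The authors deposited 1 table with raw counts and FPKM (fragments scaled by gene length and depth) per gene and library, per the file headers. Tools listed without a role in the submitters' processing notes are Bowtie 0.12.2, HISAT2 2.0 and StringTie 1.3.0, with mm8 as the build; for the counting program and its use of strand, the sources used here give nothing. The protocol text speaks of an adipose type, although the samples are T cells. Gene coordinates in the table are those of GRCm38, since 99.7% of 27405 identifiers shared a start or end with GENCODE M21.

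The main test was edgeR 4.0.16 (R 4.3.3) with TMM scaling, filterByExpr (minimum count 10), a quasi-likelihood test of group without further terms, and Benjamini-Hochberg adjustment over 16592 genes. The SE is the log2 fold change divided by the square root of the F statistic. Fold changes are PTMA minus vector. DESeq2 1.42.0, limma 3.58.1 on log2(FPKM + 1) (mean FPKM 1 or more), other scalings, no filter, a replicate block and leaving out each library were alternatives; summing members with their copies was added after seeing the data. The members and lists were chosen with earlier results of these data known. From each list the most abundant gene and the most shifted tested gene were named, except where an item is not reported here. Coding sequences were aligned with Biopython 1.88. The fit was tested on simulated counts, where it recovered 53.7% of 1.5-fold, 85.1% of 2-fold and 90.9% of 4-fold changes. These were planted in 67, 67 and 66 genes, drawn from those above a floor in mean CPM, and 9 unchanged genes were called. Counts were drawn independently for each gene, without deviations that many genes of a library share. The recovered shares may therefore be too high for the real libraries. Smaller changes, such as those of the members, were not simulated. Replicates differed far beyond counting noise (chi-square per gene 17.7 to 84.8), so none was counted as a duplicate. The highest values, 52.7 and 84.8, were those of vector 3 with vector 1 and with vector 2.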

Additional observations from a re-analysis of the deposited data

How the results depend on the processing

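The count of members past the threshold was 0 in all 15 alternatives, and the number with a positive log2 fold change, 8, was 6 to 9. With limma and its FPKM filter 9 members were tested, without Pycr1, and 7 of them were positive. Odc1, Srm, Oaz1, Oat and Aldh18a1 were positive in all 15 alternatives. Amd1 (-0.015 without PTMA 2) and Azin1 (0.022 without vector 3) changed sign in 1, Pycr1 in 2 of 13, and Sat1 and Sms in 3 each. With a library left out the ranges were 0.105 to 0.132 for Odc1, 0.104 to 0.187 for Srm, 0.067 to 0.143 for Oaz1, 0.058 to 0.183 for Oat, 0.0014 to 0.113 for Aldh18a1, -0.140 to 0.096 for Sms, -0.056 to 0.086 for Sat1 and -0.072 to 0.362 for Pycr1. Myc, at -0.035, lay between -0.053 and 0.0016. In edgeR, 771 genes had an unadjusted p under 0.05 with all libraries. There were 2668 without vector 3 and 446 to 841 without any other single library. The number of genes changed, 2, was 42 with DESeq2, 1 with limma on log2(FPKM + 1), also with a pseudocount of 0.1, 0 with limma and no filter, 0 with edgeR and no filter, and 0 to 4 with a library left out (0 without PTMA 3 or vector 1, 1 without vector 3, 4 without PTMA 2); the cause was not tested. Deviations of libraries with the same replicate number correlated at -0.16, -0.14 and -0.11, so no positive link by replicate number was seen. These values cannot show whether libraries shared an animal or culture, which the labels do not give. A replicate block gave 0 genes. Pycr1 had the fewest counts of the members, 107 to 207 per library, and Amd1 the next fewest, 2236 to 2984. Whether depth limited the calls was not tested.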
